A study of Mus musculus with 8 samples.

Results

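Interferon-response B cells were 560 of 64602 B cells in libraries labelled as mouse spleen, among 83704 cells that passed the filter. A B cell was a cell with at least 3 unique molecular identifiers (UMIs, each standing for 1 captured transcript) of Cd79a, Cd79b and Ms4a1 together and none of Cd3d, Cd3e or Cd3g. It was counted as an interferon-response cell when at least 3 of 6 interferon-stimulated genes, Ifit1, Ifit2, Ifit3, Isg15, Usp18 and Rsad2, were detected in it. These 6 genes chose the cells, so their levels, and every difference between these cells and other B cells, are given as a description with no test.

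The mice were 2 months old, and cells of 2 to 3 mice of 1 genotype were pooled for each batch. Every sample is labelled spleen, but the preparation protocol names lymph nodes as well, so it is not settled whether lymph node B cells are among those counted. cKO mice carried Eif3e fl/fl, Cγ1Cre and the Rosa26-YFP LSL reporter, and the littermate controls are described with Cγ1Cre and the same reporter but without the floxed Eif3e alleles. Cγ1Cre is driven from the immunoglobulin γ1 constant region, so recombination starts in B cells activated toward that transcript and not in resting B cells or other lineages. Total live splenocytes and sorted YFP+ cells were each profiled from both genotypes in 2 batches, which gave 8 libraries in 4 groups of 2. The p-values below therefore measure the spread between pools of mice, 2 against 2.

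Type I interferon binds the receptor chains IFNAR1 and IFNAR2, whose kinases JAK1 and TYK2 phosphorylate STAT proteins. The resulting complex, which holds STAT2 and IRF9, binds the interferon-stimulated response element and turns on antiviral genes in nearly every cell type, B cells included. Interferon gamma signals through its own receptor and raises an overlapping set, including the immunity-related GTPases and the MHC genes.

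Promoters of 6 genes are shown because the genes chose the cells or tracked them most closely, and because each holds the letters of the element's core. Each run is the 200 bases before the RefSeq transcription start in GRCm38.p6, read 5′ to 3′ on the strand of the gene. Capitals mark 2 copies of TTTC with any 2 bases between them, or the same on the other strand (GAAA, any 2 bases, GAAA), the core of the response element. The windows are chr19:34640689-34640888 (plus strand) for Ifit1, chr19:34583329-34583528 (plus) for Ifit3, chr4:156200819-156201018 (minus) for Isg15, chr12:26456453-26456652 (minus) for Rsad2, chr11:82951902-82952101 (plus) for Slfn5 and chr7:104465194-104465393 (minus) for Trim30a.
Ifit1: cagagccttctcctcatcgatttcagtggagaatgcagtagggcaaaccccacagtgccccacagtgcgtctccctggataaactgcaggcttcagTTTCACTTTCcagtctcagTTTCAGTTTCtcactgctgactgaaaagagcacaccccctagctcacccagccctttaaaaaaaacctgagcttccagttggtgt
Ifit3: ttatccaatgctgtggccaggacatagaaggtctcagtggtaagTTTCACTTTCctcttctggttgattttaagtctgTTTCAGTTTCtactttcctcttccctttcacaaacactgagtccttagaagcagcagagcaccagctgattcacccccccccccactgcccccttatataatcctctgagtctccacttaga
Isg15: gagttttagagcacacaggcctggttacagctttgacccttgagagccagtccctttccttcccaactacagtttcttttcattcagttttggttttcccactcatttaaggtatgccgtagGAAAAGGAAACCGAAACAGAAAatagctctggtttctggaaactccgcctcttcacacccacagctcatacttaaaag
Rsad2: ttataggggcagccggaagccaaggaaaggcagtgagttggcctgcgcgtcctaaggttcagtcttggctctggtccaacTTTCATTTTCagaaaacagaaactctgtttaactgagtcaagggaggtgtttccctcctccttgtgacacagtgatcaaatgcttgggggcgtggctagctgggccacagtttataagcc
Slfn5: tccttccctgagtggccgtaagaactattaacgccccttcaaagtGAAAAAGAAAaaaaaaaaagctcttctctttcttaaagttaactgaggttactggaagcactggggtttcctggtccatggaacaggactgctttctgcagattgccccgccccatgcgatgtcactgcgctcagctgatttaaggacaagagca
Trim30a: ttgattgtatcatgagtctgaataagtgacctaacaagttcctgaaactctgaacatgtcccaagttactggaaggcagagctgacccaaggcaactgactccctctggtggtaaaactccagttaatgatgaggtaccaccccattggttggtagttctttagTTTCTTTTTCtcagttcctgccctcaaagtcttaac

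In Ifit1 the 2 copies began 85 and 104 bases before the start, in Ifit3 122 and 156 bases before it, and in Isg15 3 copies in the reverse orientation ran into each other between 66 and 78 bases before it. Rsad2 and Trim30a held 1 copy each, at 120 and 36 bases, and Slfn5 1 reverse copy at 155 bases. In the 250 bases before the start, searched on both strands with overlapping copies counted, the motif stood in 978 of 32851 RefSeq windows, or 2.98%, and in 936 of 27025 genes, or 3.46%. It stood in 4 of the 5 rule genes with an entry, the exception being Ifit2, and in 7 of 9 of the 10 genes most like the rule that had an entry. Of the listed type I interferon-induced genes outside the rule, 17 of 50 had it (34.0%), and of the interferon gamma-induced list 10 of 13. None of 8 receptor and kinase genes and none of 9 MHC II genes had it. A match is a run of letters, not a measured binding site.

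The libraries held 71894780 to 105224903 UMIs each, and the interferon-response cells of a library 430777 to 830652. Median UMIs per cell were 6354 to 8595.5 in interferon-response cells and 4641 to 7020.5 in other B cells. Between 51 and 102 barcodes were shared by each of the 28 pairs of libraries, 23 interferon-response cells carried a barcode also found in another library, and none of them shared it with another interferon-response cell. Eif3e (the targeted subunit of the translation initiation factor eIF3) read 221 and 314 counts per 1000000 UMIs (CPM) in interferon-response cells from control spleens and 237 and 312 in those from cKO spleens. In the YFP+ sort it read 195 and 333 against 222 and 305. The genotypes overlapped in both sorts, and 3′ counts may lie outside the deleted part, so these counts do not say whether the gene was recombined. Xist was found in the cKO libraries of batch 1 (524 and 638 CPM over all cells) and at 0.348 CPM or less in the other 6, while Y-linked genes were found in all 8, so the 2 cKO pools of batch 1 differed in sex from the rest, and the part of this in the results was not tested.

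**Figure D1:**
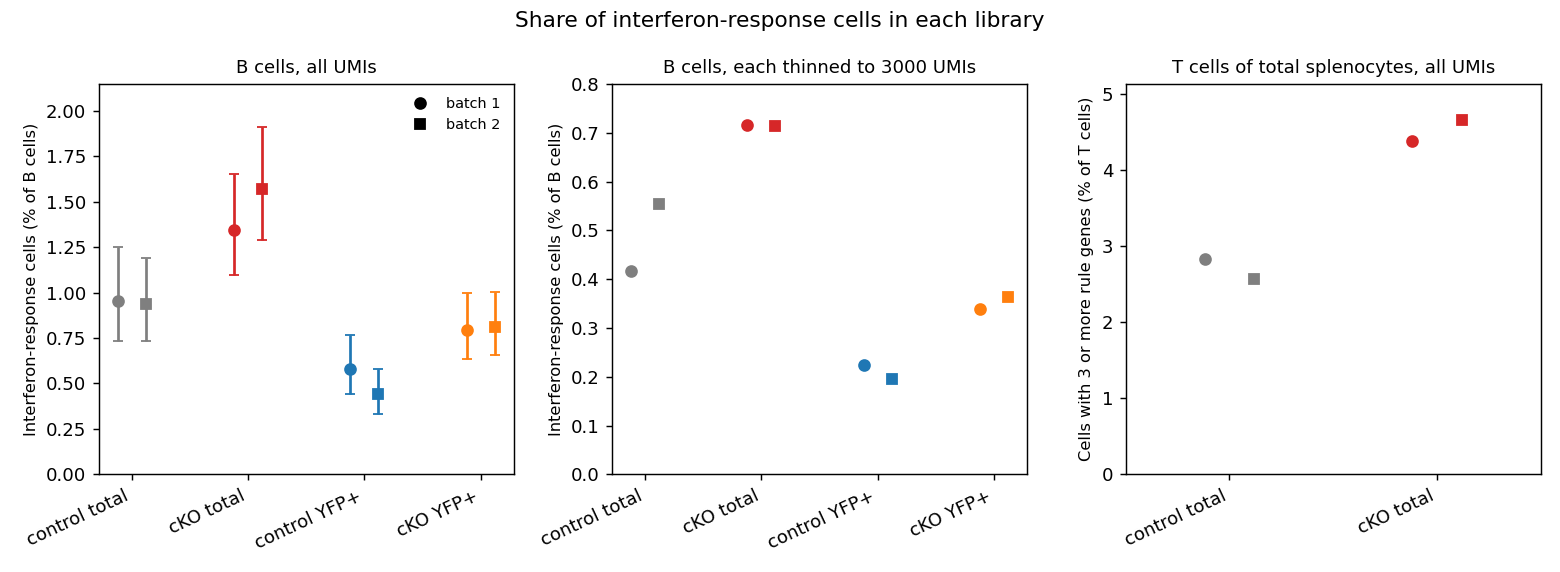
Share of B cells that were interferon-response cells in each of the 8 libraries, as detected and with each cell thinned to 3000 UMIs, and the share of T cells that met the same 6-gene rule, all in percent. Points are libraries, coloured by genotype and sort. Both cKO libraries lie above both control libraries within each sort for the B cells, from 0.441 to 0.581% against 0.796 to 0.810% in YFP+ cells.

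Interferon-response cells made up a larger share of B cells in both cKO libraries than in both controls, in total splenocytes and in YFP+ cells. In control total splenocytes they were 53 of 5544 B cells (0.956%, 95% Wilson interval 0.732 to 1.25) and 65 of 6953 (0.935%, 0.734 to 1.19). In cKO total splenocytes they were 89 of 6618 (1.34%, 1.09 to 1.65) and 97 of 6177 (1.57%, 1.29 to 1.91). The means ± SD (n = 2) were 0.945 ± 0.0149% and 1.46 ± 0.159%, a ratio of 1.54.
In YFP+ cells the shares were lower in both genotypes. They were 49 of 8429 (0.581%, 0.440 to 0.768) and 50 of 11340 (0.441%, 0.335 to 0.581) in controls and 74 of 9295 (0.796%, 0.635 to 0.998) and 83 of 10246 (0.810%, 0.654 to 1.00) in cKO. The means were 0.511 ± 0.0993% and 0.803 ± 0.00986%, a ratio of 1.57. The intervals cover counting error only.
The differences of 0.512 and 0.292 percentage points had the same sign in each batch, at 0.389 and 0.635 in total splenocytes and 0.215 and 0.369 in YFP+ cells. The two-sided exact permutation test gave p = 0.333 in each sort, which is the smallest value that 2 against 2 libraries allow.

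Detection depends on depth, so each cell was also thinned to 3000 UMIs and shallower cells were left out (154 to 2108 B cells per library). The shares became 0.417 and 0.554% in controls against 0.716 and 0.714% in cKO for total splenocytes, and 0.224 and 0.195% against 0.338 and 0.363% for YFP+ cells. The genotypes did not overlap at this depth either, nor at 1500 UMIs, where the differences were 0.0771 and 0.126 percentage points. T cells, which respond to interferon themselves and so are no measure of free RNA, met the same 6-gene rule in 51 of 1805 and 44 of 1711 cells in control total splenocytes (2.83 and 2.57%) and in 76 of 1735 and 84 of 1806 in cKO (4.38 and 4.65%). Their share was thus above that of B cells, and higher in both cKO libraries too, at median depths of 6018 to 7458 UMIs. The YFP+ sort held too few T cells for a comparison, with 3 of 248 and 0 of 45 in controls and 3 of 218 and 0 of 18 in cKO, and 0 of 45 and 0 of 18 allow up to 6.67 and 16.7%.

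Within the interferon-response cells the 6 genes that chose them were unevenly detected. Isg15, a ubiquitin-like modifier, was found in 80.7% of them and in 6.27% of other B cells. Ifit3, which binds and steadies the RNA-binding protein Ifit1, was found in 78.8 and 1.32%. Usp18, which removes Isg15 from its targets and dampens the receptor, was found in 68.6 and 2.54%.
Ifit2, of the same family as Ifit1, was found in 67.0 and 2.48%. Ifit1, which binds viral RNA caps, and Rsad2, the antiviral enzyme viperin, were found in 45.4 and 44.5% of interferon-response cells and in 0.401 and 0.509% of other B cells. Over the 8 libraries the level in interferon-response cells ran from 223 to 535 CPM for Isg15, 165 to 393 for Ifit3, 97 to 189 for Usp18, 100.2 to 293 for Ifit2, 50 to 132 for Ifit1 and 54 to 137 for Rsad2. All 6 were detected in 62 cells (11.1%), and the most frequent set of 3 was Ifit3, Isg15 and Usp18, in 53. The 560 cells held 33.1% of all B cell UMIs of these 6 genes.

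The rule cuts a gradient. Of all B cells, 56225 had none of the 6 genes, 6974 had 1, 843 had 2, 297 had 3, 113 had 4, 88 had 5 and 62 had 6. The 61 type I interferon-induced genes outside the rule took a median of 0.421% of a cell's UMIs at 0 rule genes, 0.449% at 1, 0.735% at 2, 1.38% at 3, 1.75% at 4, 2.20% at 5 and 2.75% at 6. Just outside the threshold, at 2 rule genes, the quartiles were 0.467 and 1.22%, and just inside, at 3, they were 0.996 and 1.89%, so the neighbours overlapped.
In every library nearly all interferon-response cells lay above the median of the other B cells of that library on this measure, from 48 of 50 to 53 of 53. The library medians were 1.32 to 2.03% against 0.372 to 0.518%. Of the control YFP+ cells 66.7% had exactly 3 rule genes, against 51.0% in cKO YFP+, 47.5% in control total and 51.1% in cKO total.

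**Figure D2:**
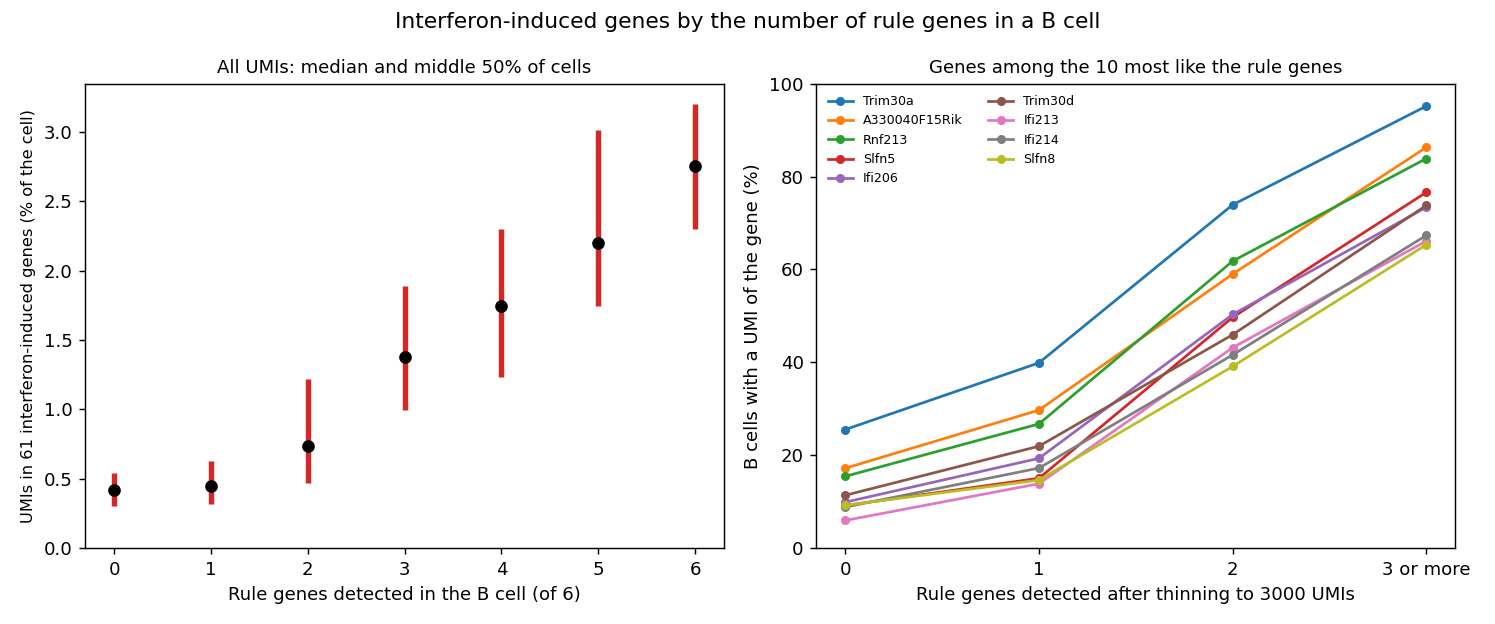
B cells by the number of rule genes detected. One panel gives the share of a cell's UMIs in 61 type I interferon-induced genes outside the rule (median and quartiles, percent), which rises from 0.421% at 0 to 2.75% at 6 rule genes. The other gives the share of thinned cells with genes among the 10 most like the rule, such as Trim30a.

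With every cell at 3000 UMIs, the gene whose detection rose most from cells with no rule gene (56236 cells) to cells with 3 or more (248 cells) was Trim30a, a TRIM family regulator, from 25.5 to 95.2%. It was followed by the transcript A330040F15Rik (17.2 to 86.3%), the giant E3 ligase Rnf213 (15.5 to 83.9%) and Slfn5 of the Schlafen family (9.21 to 76.6%). Ifi206, Trim30d, Ifi213, Ifi214 and Slfn8 were also among the first 10. All 10 rose in each step, with cells at 2 rule genes between (Trim30a in 73.9%, Slfn5 in 49.7%). Ifit3 and Ifit3b, and the Trim30, Ifi200 and Slfn clusters, are near-identical or closely related copies, so the split of their counts between members of a family is uncertain.

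Interferon-response cells were set against the other B cells of the same library by log2 differences with a prior count of 2. By these, 81 of 6016 genes outside the rule (1.35%) were at least 2-fold higher in 8 of 8 libraries. None was at least 2-fold lower in 8 of 8. In 333 (5.54%) the level was higher in 8 of 8 by any amount. Since the cells were chosen by genes of this programme, this is what the rule gathered and not evidence for it. At the median of all genes the difference was -0.10 on the log2 scale.

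**Figure D3:**
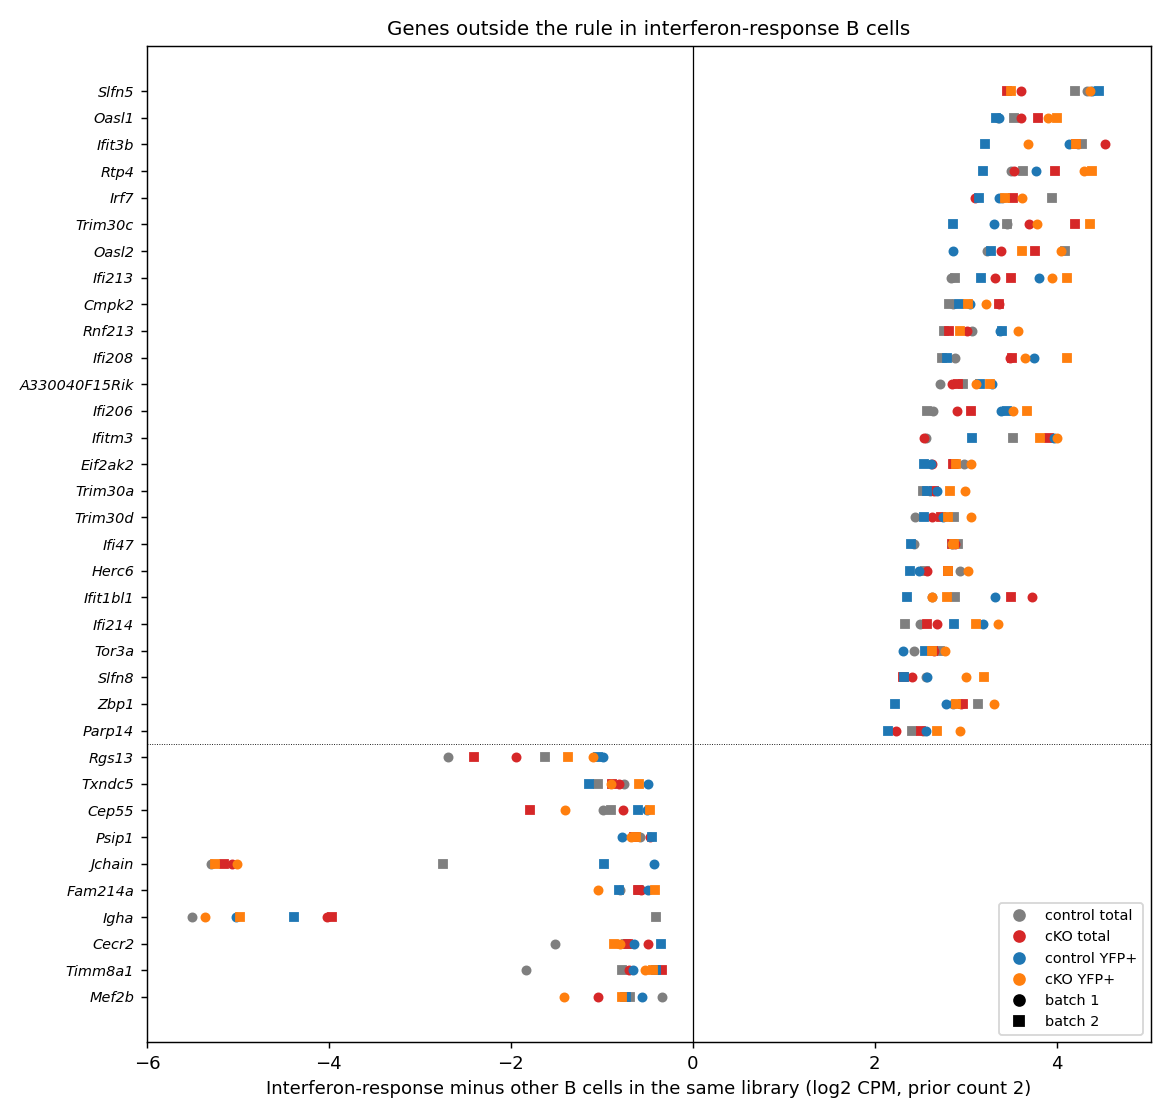
Log2 difference in CPM (prior count 2) between interferon-response cells and the other B cells of the same library. The genes named by size are shown, 1 point for each of the 8 libraries. Slfn5 had a median difference of 4.27 and Jchain a range of -5.29 to -0.43.

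Of the type I interferon-induced genes outside the rule, 53 passed the level of 20 CPM, 44 were at least 2-fold higher in 8 of 8 libraries, and the list's median log2 difference was 2.49. Close to Ifit3b, with a median of 4.21, Slfn5 had one of 4.27. Its levels were 450.3 and 525 CPM in controls and 580.3 and 970.3 in cKO for total splenocytes, with 239 and 184 against 583 and 722 for the YFP+ sort, while other B cells had 4.93 to 86.3. Irf7, the transcription factor that amplifies interferon production, lay between 85 and 201 CPM in the 8 libraries against 4.70 to 10.6, with a median difference of 3.41. Oasl1, which restrains translation of Irf7, lay between 77 and 218 CPM against 3.43 to 17.2 (median 3.57), and Rtp4, a receptor-transporting protein, between 43 and 199 against 1.51 to 10.3 (median 3.70). Eif2ak2, the RNA-activated kinase PKR that phosphorylates eIF2α, lay between 161 and 275 CPM against 24.7 to 35.6, and the nucleic acid sensor Zbp1 between 163 and 242 against 14.3 to 32.1. All 8 libraries showed these differences, and the ranges of both classes did not meet for any of the genes named here.

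The transcription factors Stat2 and Irf9 of the pathway were higher as well, while its receptors and kinases were not. Stat2 lay between 62.6 and 160.1 CPM in interferon-response cells against 24.1 to 43.7 in other B cells, and Irf9 between 94.8 and 138 against 26.1 to 57.9. Of the receptors and kinases 7 passed the level filter, none was higher in 8 of 8 libraries and the list's median was -0.06. Ifnar1 lay between 23.3 and 54.4 CPM against 22.5 to 63.0, Ifnar2 between 35.8 and 74.97 against 39.0 to 76.5, and Jak1 between 226 and 344 against 219.8 to 370.5. These ranges overlapped throughout.
Of the negative regulators 1 of 6 was higher in 8 of 8, Socs1, which blocks JAK kinases (median 1.32), and of the nucleic acid sensing genes 1 of 7, Tlr7, the endosomal RNA receptor (median 1.91). The interferon gamma-induced list had 6 of 11 genes at least 2-fold higher and a median of 1.53, led by the GTPases Ifi47 (2.85) and Irgm1 (2.68). MHC I presentation genes were higher in 8 of 8 for 14 of 19, by less, with a median of 0.31, from Nlrc5, their transcriptional activator (1.76), to H2-D1 (0.15). Of 12 MHC II genes none was, with a median of -0.07.

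Of the ligands, Ifng (interferon gamma) had 2276 UMIs in all cells, 40 to 717 in a library, of which 761 were in T cells. Of 21 interferon genes, the 20 other than Ifng had 56 UMIs in all 83704 cells and 0 in interferon-response cells (a sum of up to 0.605 CPM is allowed by 0 counts), and 15 of them had none anywhere. Ifnk, a type I interferon, held 47 of the 56, found in all 8 libraries, and Ifnz, Ifnb1 and Ifnab held 4, 2 and 2. Ifng had 3 UMIs in interferon-response cells, and the 21 genes together read 0 to 2.32 CPM there against 0.293 to 1.24 in other B cells, ranges that overlap.

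Several genes of germinal centre and plasma cells were lower in interferon-response cells. Rgs13, a regulator of G protein signals in germinal centre B cells, had a median log2 difference of -1.50 and was lower in 8 of 8 libraries, as were Mef2b, which works with Bcl6 there, and Txndc5 and Jchain of antibody-secreting cells. Jchain, the joining chain of secreted IgM and IgA, read 4412 and 2525 CPM in control YFP+ cells against 5926 and 4967 in other B cells, with 1008 of the 1411 UMIs of the second library in 1 cell. In the other 6 libraries it was at 11.6 to 91.2 CPM against 487 to 1241. Of the germinal centre list 3 of 5 and of the plasma cell list 2 of 4 were lower in 8 of 8, beside 457 of all 6016 genes (7.6%), with medians of -0.74 and -0.44. Of 10 cell cycle genes 1 was lower in 8 of 8, with a median of -0.63 for the list. Its summed level was higher in interferon-response cells in cKO total replicate 1 (784 against 600.2 CPM), and a UMI of Mki67 or Top2a, genes of dividing cells, was found in a larger share of them than of other B cells in 3 of 8 libraries, most of all in control total replicate 2 (15.4 against 6.82%).

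At least 2 genes of the T, NK, plasmacytoid, monocyte, neutrophil and erythroid lists were detected in 172 of the 560 interferon-response cells (30.7%). The share was 26.0% of other B cells. Of 26 defining markers of other lineages, 25 interferon-response cells held 5 or more UMIs. That was 1 to 7 in a library, or 1.20 to 10.8% of them against 0.305 to 3.27% of other B cells. The summed monocyte and macrophage markers were higher than in other B cells in 7 of 8 libraries, at 38.3 to 2790 CPM against 39.97 to 224, with the largest gaps in cKO YFP+ replicate 1 (2790 against 94.5) and control total replicate 2 (1949 against 224). In control total replicate 1 a single cell held 46 of the 50 UMIs of S100a8, a neutrophil gene, and another held all 110 of Cxcl9, a chemokine induced by interferon gamma. In cKO total splenocytes a single cell held 685 of 689 and 1136 of 1136 UMIs of the haemoglobin gene Hbb-bt. Without the 25 cells, 80 genes were at least 2-fold higher in 8 of 8 libraries and the differences in share were 0.554 and 0.287 percentage points.

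The kinds of B cell behind the programme differed between the sorts and genotypes. IgD transcript (Ighd, of naive B cells) was found in 47 of 53 and 52 of 65 interferon-response cells of control spleens and 77 of 89 and 91 of 97 of cKO spleens. Among sorted YFP+ cells it was found in 31 of 49 and 20 of 50 controls and in 67 of 74 and 80 of 83 cKO cells. Only the control YFP+ cells stood apart, at 51.5% (35.7% when thinned to 3000 UMIs), against 83.9 to 93.6% (65.2 to 80.5%) in the other groups. Other B cells of the same libraries had the same order, with 58.0 and 44.3% in control YFP+ and 89.1 to 92.3% in the other 6, and T cells, which lack it, 1.37 to 10.04%.
Jchain at 5 or more UMIs was found in 12 of 49 and 11 of 50 control YFP+ cells and in 1 of 118 of control total. It was found in 0 of 186 cKO total and 0 of 157 cKO YFP+ cells, which allows up to 1.61 and 1.91%. Other B cells had it in 23.8 and 30.99% of control against 4.74 and 2.85% of cKO YFP+ cells. The gap between genotypes in this sort was thus present in other B cells too. In total splenocytes other B cells had it in 1.31 and 0.813% of control against 2.59 and 3.799% of cKO cells. Fcer2a, the CD23 gene of follicular B cells, was found in 31.3 and 39.0% of control YFP+ and total cells and in 61.8 and 56.5% of the cKO ones (16.3, 23.5, 39.0 and 37.4% thinned, T cells 0.683 to 2.28%). Other B cells had it in 34.6 and 42.2% of control against 67.0 and 69.2% of cKO YFP+ cells, and in 55.9 and 64.9% against 59.0 and 72.6% in total splenocytes, where the genotypes overlapped.

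Between cKO and control, the UMIs of the interferon-response cells were summed per library and tested across all genes with edgeR's quasi-likelihood test and Benjamini-Hochberg adjustment. In such sums, more cells of a type and more RNA per cell cannot be told apart. In total splenocytes 3 of 6688 genes passed an adjusted p of 0.05 (0.0449%), all higher in cKO, and 273 had an unadjusted p under 0.05. In YFP+ cells 92 of 6678 passed (1.38%), 30 higher (0.449%) and 62 lower (0.928%), and 554 had an unadjusted p under 0.05. With batch as a block the counts were 127 and 200, and when the cells were chosen at 3000 UMIs they were 12 and 5. With cells that had fewer than 2 marker genes of other lineages they were 2 and 6. Of these, 1 and 5 were among the 3 and 92.

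In total splenocytes the called gene spread over many cells was St7, a suppressor of tumorigenicity candidate. It read 11.6 and 12.2 CPM in control and 147 and 207 in cKO interferon-response cells, found in 4 and 5 against 49 and 58 cells. The log2 change was 3.60 ± 0.40 (approximate SE, edgeR adjusted p = 0.00418). St7 passed in 16 of 16 alternatives. The other called genes were the haemoglobins Hbb-bt and Hba-a1, with log2 changes of 7.12 and 7.0. Their UMIs came almost wholly from a single cell in each cKO library. Il4i1, an amino acid oxidase induced by IL-4, read 23.2 and 42.6 against 184 and 335 CPM (log2 change 2.88 ± 0.43, adjusted p = 0.0559). Its genotypes did not overlap, but neither did those of 990 genes higher and 949 lower in cKO among all 6688 tested. Il4i1 passed with the block and in 12 of 16 alternatives. Socs1, the JAK inhibitor, read 6.96 and 16.2 against 55.8 and 136 CPM (2.76 ± 0.53, adjusted p = 0.185) and passed in 9 of 16.

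**Figure D4:**
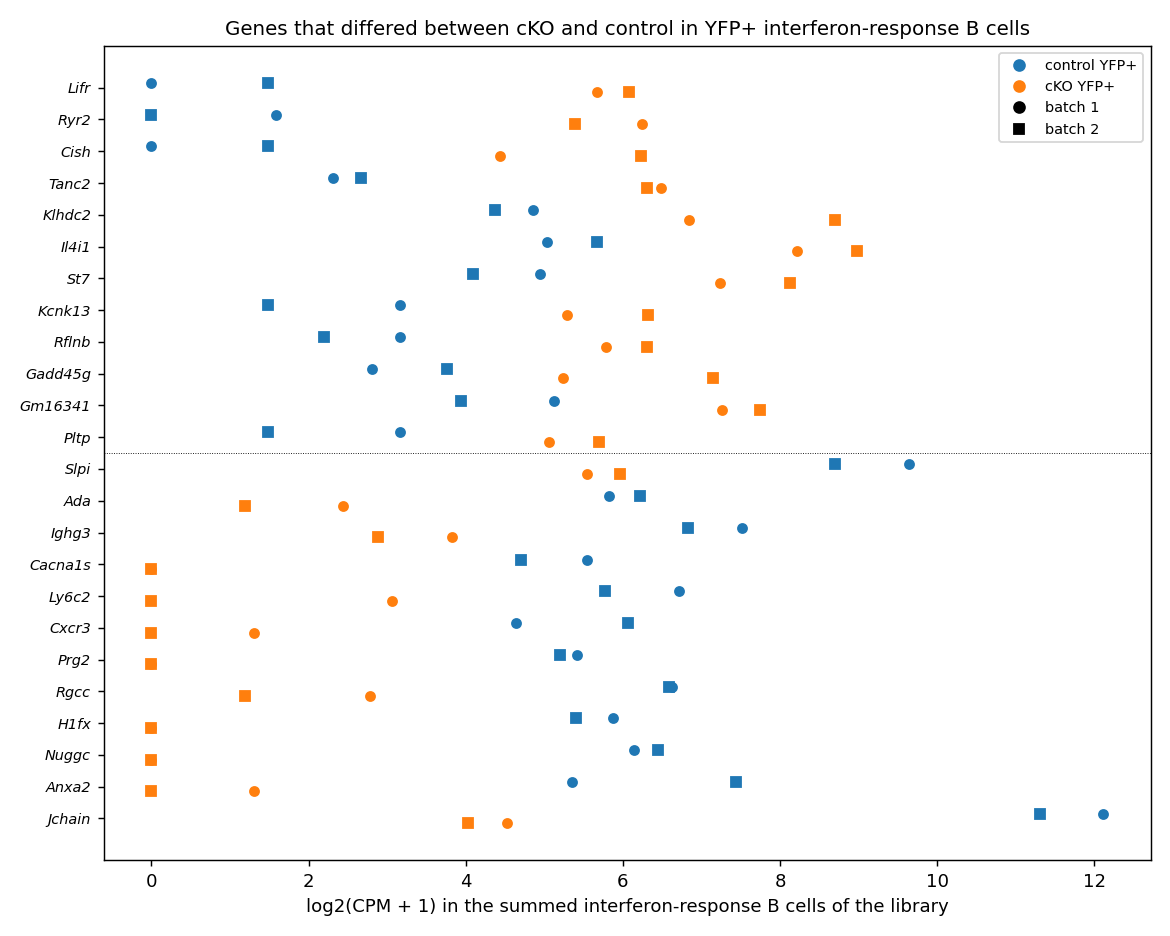
CPM in interferon-response cells of each YFP+ library for the genes named by fold change, on a log axis, with control and cKO libraries in different colours. The 2 cKO libraries lie on the same side of both controls for every gene drawn, as the rule for naming required.

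In YFP+ cells Lifr and Cish were among the genes that rose in cKO interferon-response cells. Lifr, the receptor of leukaemia inhibitory factor, had 1 UMI in both control libraries together and 34 and 52 in cKO, a ratio of CPM of 62.3 (exact 95% interval 10.9 to 2490). Cish, a STAT5-induced feedback inhibitor, had 1 UMI against 14 and 58, a ratio of 52.2 (9.07 to 2089). Their fitted log2 changes were 3.87 ± 0.53 and 3.61 ± 0.67 (adjusted p = 7.55e-04 and 0.00865), and both genes were nearly silent in the control cells. Lifr passed in 14 of 15 alternatives and Cish in 10 of 13, with changes of 2.96 to 5.89 and 2.38 to 5.61.
Il4i1 read 31.9 and 50.1 CPM in control and 295 and 503 in cKO (3.12 ± 0.44, adjusted p = 0.00104). St7 read 29.9 and 16.1 against 149.9 and 278 (3.01 ± 0.46, adjusted p = 0.00202). Tanc2, a scaffold protein, rose by 3.39, the ubiquitin ligase receptor Klhdc2 by 3.27, the potassium channel gene Kcnk13 by 2.93 and the stress gene Gadd45g by 2.84. Ryr2, Rflnb, Gm16341 and Pltp were the other 4 of the 12 named, with log2 changes of 3.83, 2.92, 2.73 and 2.46. Klhdc2 had 77 and 325 UMIs and Gadd45g 25 and 110 in the cKO libraries. Without cKO replicate 2, Klhdc2, Kcnk13, Gadd45g and Pltp were at 1.99, 2.25, 1.55 and 2.03 and did not pass (adjusted p = 0.0620, 0.226, 0.722 and 0.714). In the other B cells of the YFP+ sort the changes of Lifr, Il4i1 and St7 were 6.08, 3.33 and 3.66. The prior count shrinks a fitted change where a group has few UMIs, as with the 1 control UMI of Lifr. The values 3.87 and 6.08 for Lifr are therefore not comparable in size.

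The genes that fell included genes of antibody-secreting and germinal centre cells. Jchain read 4412 and 2525 CPM in control and 22.04 and 15.3 in cKO YFP+ interferon-response cells, a log2 change of -7.39 ± 0.51 (adjusted p = 3.87e-07). The change was -2.97 with at least 2 rule genes and -2.99 with cells chosen at 3000 UMIs, and with at least 4 rule genes it was -6.77 and did not pass (adjusted p = 0.584). Of its control UMIs 508 of 2216 and 1008 of 1411 were in 1 cell of each library. Nuggc, a nuclear GTPase of germinal centre B cells, had 35 and 48 UMIs in 12 and 13 control cells and 0 in both cKO libraries, which makes it at least 38.2-fold lower, taking 3 counts over the group as the floor.
Anxa2, a membrane-binding annexin, had 20 and 96 UMIs in control against 1 in cKO, a ratio of 160.1 (28.2 to 6377). Its fitted log2 change was -4.89, -3.56 without control replicate 2, and it did not pass with all 8 libraries in 1 model (adjusted p = 0.0557). Cxcr3, the receptor for the interferon-induced chemokines Cxcl9 and Cxcl10, had 12 and 37 against 1, a ratio of 67.6 (11.6 to 2725). Rgcc, a cell cycle regulator, read 97.6 and 94.8 CPM against 5.88 and 1.28 (-3.97 ± 0.47, adjusted p = 4.51e-04). Slpi, a protease inhibitor, fell by 3.49 and Ighg3, the IgG3 heavy chain, by 3.62 on the log2 scale, but with at least 2 rule genes Slpi was at 0.12. H1fx, Prg2 and Cacna1s were at 0 in both cKO libraries and were at least 23.9-fold, 18.9-fold and 17.02-fold lower, while Ly6c2 (-3.68) and Ada (-3.58) completed the 12.
The lists of these cell kinds are read beside 0.928% of all genes called lower. Of the germinal centre list 3 of 6 were lower (Gcsam, Rgs13 and Mef2b) and none higher, and of the plasma cell list 3 of 5 (Jchain, Prdm1 and Mzb1) and none higher. Their medians were -2.10 and -1.59, beside -0.02 over all genes tested. In the other YFP+ B cells 6 of 8 and 5 of 7 were lower, beside 4.06% of all genes. Over the alternatives Gcsam passed in 9 of 11, Rgs13 in 11 of 13 and Mef2b in 10 of 14. Jchain passed in 14 of 15, Prdm1 in 9 of 12 and Mzb1 in 9 of 15, where Mzb1 ran from -1.75 to -0.09. Ighd itself had a log2 change of 1.67 ± 0.44 (adjusted p = 0.0791). The part of cell kind in these changes was not tested in YFP+ cells.

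The interferon-induced genes themselves are read beside the shares over all genes, 0.0449% in total splenocytes and 1.38% in YFP+ cells. The same cut on interferon-stimulated genes chose the cells of both genotypes, and the listed type I genes rose with the rule genes. Few calls or a small median therefore cannot tell whether the interferon response differed between genotypes. In total splenocytes none of 55 type I genes outside the rule passed in edgeR or DESeq2, 4 had an unadjusted p under 0.05 and the median log2 change was 0.02. With batch as a block Slfn5 was higher and Ly6a lower there (0.837 and 1.06% of all genes were in that fit), without control replicate 1 Ifi204, Ifi44 and Ly6c2 were lower, and without control replicate 2 Nampt was. In YFP+ cells none of 56 was higher and 2 were lower, Ly6c2 and Ly6a, with 9 at an unadjusted p under 0.05 and a median of 0.27. Both also passed in the other YFP+ B cells. There 2 of 58 were higher and 4 lower, beside 2.8 and 4.06% of all genes.
Ly6a, the stem cell antigen Sca-1, which activated lymphocytes also express, read 739 and 812 CPM in control YFP+ and 249.8 and 131 in cKO (-2.10 ± 0.39, adjusted p = 0.00931). In total splenocytes it read 620 and 776 against 435 and 254, with no overlap but an adjusted p of 0.816. Of all 6688 genes tested there, 949 were lower in both cKO libraries than in both controls. Of the interferon gamma list none of 15 and none of 16 passed (medians -0.19 and 0.14), of MHC I genes none of 19 in each sort (medians -0.05 and 0.04), and of receptors and kinases none of 7 and none of 8 (medians 0.18 and 0.23). At an unadjusted p under 0.05 these lists had 0 and 2, 0 and 0, and 1 and 2 genes, and DESeq2 called none in them.

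**Figure D5:**
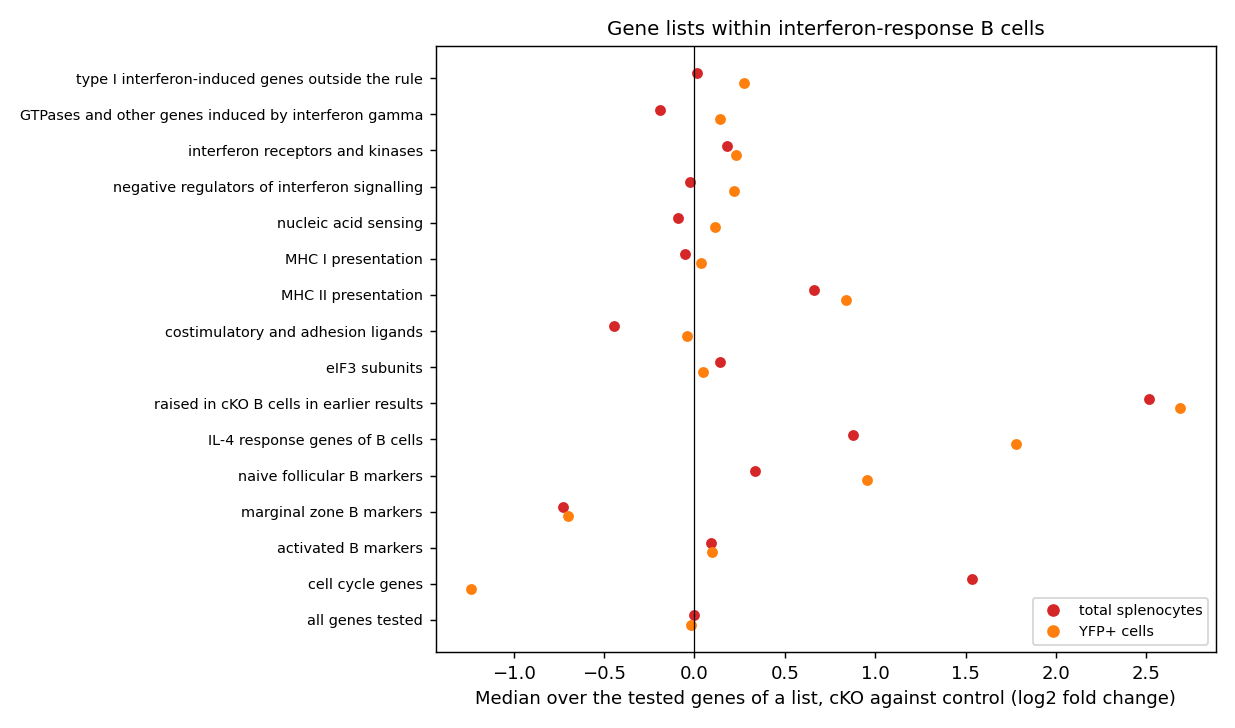
Median log2 change, cKO against control, in interferon-response cells of total splenocytes and YFP+ cells. Drawn are the gene lists with at least 5 genes tested in both sorts, and all genes tested. The type I list lies at 0.02 and 0.27 and the MHC II list at 0.66 and 0.84.

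Slfn5 was the member of the type I list that came nearest to the threshold on the higher side. In YFP+ interferon-response cells it was higher in both cKO libraries (583 and 722 CPM) than in both controls (239 and 184), as were 1125 of all 6678 genes tested. Its log2 change was 1.54 ± 0.37, with an adjusted p of 0.0516 in the edgeR test. Slfn5 passed with batch as a block, where Slfn8 did too, and in DESeq2. In total splenocytes its change was 0.70 ± 0.35 (adjusted p = 1.00).
The other B cells started from lower levels, 17.8 and 24.7 against 45.0 and 86.3 CPM in total splenocytes and 7.60 and 4.93 against 25.4 and 61.7 in YFP+ cells, with changes of 1.71 and 2.83 (adjusted p = 0.292 and 0.0175). The genotype change of Slfn5 was smaller in interferon-response cells than in other B cells by 1.00 ± 0.13 on the log2 scale (edgeR interaction over all 8 libraries, adjusted p = 1.20e-11). The sorts of a batch may share mice, in which case the 8 libraries are not independent and this p is too small. Slfn5 rose with the rule genes, from 9.21 to 76.6% of thinned cells, and the same cut chose cells in both genotypes. The test therefore cannot tell a smaller genotype change from an effect of the cut. With the 4 total or the 4 YFP+ libraries alone the difference was -0.95 and -1.10 (adjusted p = 3.86e-05 and 5.89e-06), and with other B cells at the depth of the interferon-response cells it was -0.98 and did not pass (adjusted p = 0.848).

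Feedback inhibitors of cytokine receptors and an antigen presentation gene also passed. Of the negative regulators Cish and Socs3, which restrain cytokine receptors, were higher in cKO YFP+ cells (2 of 8, beside 0.449% of all genes, median 0.22). Socs3 read 7.96 and 3.58 CPM in control and 32.3 and 39.6 in cKO (2.09 ± 0.48, adjusted p = 0.0353). It passed in only 5 of 12 alternatives. Socs1 read 39.8 and 51.9 against 118 and 202 (1.67 ± 0.41, adjusted p = 0.0530) and passed with the block and in DESeq2. Among the other YFP+ B cells Cish and Socs1 were called higher too.
All 12 MHC II presentation genes had a change above 0 in both sorts, with medians of 0.66 and 0.84. Of all genes tested, 3342 of 6688 and 3184 of 6678 were above 0. In the other B cells all 12 were above 0 too, with medians of 0.65 and 0.81. Among interferon-response cells, only Ifi30, the lysosomal thiol reductase that prepares antigens, passed in the YFP+ sort. None did in total splenocytes, where 6 of 12 had an unadjusted p under 0.05 and DESeq2 called Ifi30. With batch as a block 8 of 12 were called higher in YFP+ cells and 6 of 12 in total splenocytes, beside 0.943 and 0.837% of all genes in those fits. Ifi30 read 195 and 332 against 536 and 1109 CPM in total splenocytes (1.66 ± 0.42, adjusted p = 0.444). In YFP+ cells it read 157 and 270.2 against 555 and 1204 (1.96 ± 0.45, adjusted p = 0.0335). It passed in 5 of 16 alternatives in total splenocytes and in 10 of 15 in YFP+ cells, with YFP+ changes of 1.24 to 2.49. The other B cells had 246 and 300 against 534 and 1077 CPM in total splenocytes and 228 and 294 against 523 and 1141 in YFP+ cells, and the genotype change did not pass a test of difference between the classes (0.25 ± 0.11, adjusted p = 0.909). Ciita, the activator of MHC II transcription, had changes of 0.81 ± 0.31 and 1.13 ± 0.37 (adjusted p = 0.954 and 0.210).

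Of the further lists, to be read beside 0.0449% of all genes called in total splenocytes and 0.449% higher and 0.928% lower in YFP+ cells, genes raised in cKO B cells in earlier results of these data passed in 1 of 6 and 5 of 8 (St7, Kcnk13, Lifr, Nfil3 and Tanc2 in YFP+ cells), which is not independent evidence, since they were chosen on these libraries. Those lowered passed in 0 of 3 and 1 of 3 (Cxcr3). IL-4 response genes passed in 0 of 5 and 3 of 7, all higher (Cish, Il4i1 and Fcer2a). In the other YFP+ B cells 6 of 9 were higher and 1 lower, beside 2.8 and 4.06% of all genes. Of the lists of other lineages, the erythroid one had 2 of 5 higher in total splenocytes, the haemoglobins above, and none of the 7 and 2 monocyte and 2 and 2 conventional dendritic genes tested passed. Of the T and plasmacytoid lists only 1 gene each was tested in a sort, of the NK list 2 and 0 and of the neutrophil list none, so these lists could give almost no call. Single genes passed in YFP+ cells among the naive follicular (Fcer2a, higher), activated (Egr2, higher), T-bet+ (Cxcr3, lower), B1 (Bhlhe41, lower) and transitional (Cd24a, lower) markers. Of 11 cell cycle genes none passed, with 9 at an unadjusted p under 0.05, a median of -1.24 in YFP+ cells and Mki67 lower in DESeq2, while with batch as a block 5 were lower, beside 2.05% of all genes in that fit. In total splenocytes 5 of these genes were tested, and all 5 had a change above 0, beside 3342 of all 6688 genes. Their median was 1.53 and none passed.

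Whether the genotype change differed between interferon-response and other B cells was tested in 1 model over all 8 libraries, with the library as a block, which takes the 2 sorts of a batch as independent. With the 4 total or the 4 YFP+ libraries alone 28 and 23 genes passed, of which 10 and 10 were among the 31 given next. Of 14834 genes 31 passed (0.209%), 15 with a higher change in interferon-response cells (0.101%) and 16 with a lower one (0.108%), 734 had an unadjusted p under 0.05, and DESeq2 called 3. When other B cells were taken at the depth of the interferon-response cells, 1 passed. In the other B cells, 9 of 14790 genes differed between genotypes in total splenocytes (0.0609%), 8 higher (0.0541%) and 1 lower (0.00676%). In YFP+ cells 1111 of 16206 did (6.86%), 453 higher (2.8%) and 658 lower (4.06%).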

How the data were processed

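Single-cell 3′ RNA libraries were made by the authors with a droplet kit from total live splenocytes and YFP+ cells of cKO and control mice, 2 libraries per group, and groups and batches were taken from the sample labels. The deposited values are whole-number UMI counts per gene and cell, without normalization, in 32285 genes and 83967 barcodes. Submitters' processing notes name GRCm38 and mm10, and the sources used here give no aligner. Cells were kept with over 100 genes detected and no more than 10% of UMIs from mitochondrial genes, as the study's filter of over 200 UMIs removed none further (the smallest cell had 500). No doublet caller was run.

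Counts of the interferon-response cells were summed per library and tested with edgeR's quasi-likelihood test (edgeR 4.0.16, limma 3.58.1, R 4.3.3; TMM scaling, prior count 2), with Benjamini-Hochberg adjustment over all genes tested and a threshold of 0.05. DESeq2 1.42.0 was an alternative. The value after ± for a log2 change is an approximate SE, the size of the change divided by the square root of the test's F. It is not a fitted SE. Because the change is shrunk by the prior count, this value may understate the spread where a group has few UMIs. Levels are CPM of the summed counts, without TMM. Log2 differences from other B cells, and counts by fold, added a prior of 2 counts to the smaller sum. The larger sum got the same share of its total. These differences are therefore smaller in size than those of the quoted CPM. Thinning, shares and permutation tests used Python 3.11.15 with numpy 2.4.6, scipy 1.17.1 and pandas 2.3.3, and plots matplotlib 3.10.9. The tests were checked on simulated data. Depth per library is given in the report, and intervals and floors (3 counts) cover counting error only.

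The cells and the 32 gene lists were chosen with earlier results of these data known. Named genes were the 25 outside the rule with the highest smallest difference from other B cells over 8 libraries and the 10 with the lowest highest one, at a mean of at least 20 CPM. They were also the 12 called genes with the largest fold in each direction and sort (10 for the interaction), of those with no overlap between genotypes, and the 2 to 4 of a list with the smallest p. Mx1, Mx2 and Gbp11 were not matched to a symbol and are not analysed here. Sting1 and Mb21d1 are other names of Tmem173 and Cgas, which were used, and some genes of the lists are counted in them but not reported by name. For the lists not described in the report, the median log2 changes in total and YFP+ cells were 0.14 and 0.04 for eIF3 subunits, -0.45 and -0.04 for costimulatory and adhesion ligands, -0.09 and 0.12 for nucleic acid sensing, -0.73 and -0.70 for marginal zone and -0.30 and -0.25 for memory markers, with no call in any of them.

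The sample titles give each library a batch number and do not say what was shared within a batch. The tests did not use it, and a fit with the batch as a block, which pairs cKO with control, was an alternative. Over genes, the correlation of the control and cKO batch differences was 0.332 in total splenocytes (6694 genes) and 0.294 in YFP+ cells (6684 genes). Alternatives were the batch as a block, DESeq2, another scaling, no filter on low counts, all 8 libraries in 1 model, each library left out, rules of at least 2 or 4 genes, thinning, stricter cells and cells without other lineage markers. Cells without other lineage markers were those with fewer than 2 marker genes of other lineages detected. In YFP+ libraries the stricter cells were the same interferon-response cells, so that alternative repeats the main fit and adds a pass for each called gene. An alternative in which a gene fell under the filter on low counts is left out of its number of alternatives. Removing cells with 5 or more UMIs of the 26 defining markers and keeping Ighd-positive cells alone were chosen after seeing the data.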

Additional observations from a re-analysis of the deposited data

Results flagged for a closer look

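Of the 31 genes whose change between cKO and control differed between interferon-response and other B cells by the interaction test over all 8 libraries, the 20 named by size of the difference are given, and no explanation was tested. Values are the log2 change in interferon-response cells minus that in other B cells.

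In the largest of these differences the UMIs sat in few cells. Mertk (8.64) had 0 UMIs in the interferon-response cells of all 4 control libraries, and 12 of 12, 27 of 40 and 22 of 26 in a single cell of the 3 cKO libraries that held any. The fitted value then depends on the prior count and is no bound. Hba-a2 (6.80) had 112 of 112 and 723 of 727 UMIs of the cKO total libraries in a single cell each, Car2 (2.29) 82 of 82 in a single cell of cKO total replicate 1, and Frmd4b (3.23) 15 of 16 and 42 of 85 in the cKO total libraries. S100a9 (-7.15) and S100a8 (-6.41) had 52 of 55 and 46 of 50 UMIs of control total replicate 1 in a single cell, and Cacnb2 (-4.07) had 17 of 17 and 31 of 32 in the control total libraries. Nrgn (2.18) and Gm35520 (-3.86) had at most 29 and 11 UMIs in any library.

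The remaining genes were spread over more cells. Slfn5, a Schlafen gene induced by interferon, differed by -1.0, with other B cells of both sorts showing the larger change. The limit given for it above, that the same cut chose the cells of both genotypes, holds here too. Trim25, the ubiquitin ligase that activates the RNA sensor RIG-I, differed by 0.70, Nlrc5, the MHC I activator, by 0.65 and Apobec1, a cytidine deaminase, by 0.77. The limit given for Slfn5 holds for Trim25 and Nlrc5 too, whose levels were higher in interferon-response than in other B cells in every library. Trim25 read 207 and 149.9 CPM against 201 and 142 in total and 123 and 85.9 against 144 and 144 in YFP+ interferon-response cells, while in other B cells it read 163 and 106 against 113 and 74.0, and 89.9 and 51.2 against 57.4 and 41.9. In both sorts the other B cells of cKO mice of a batch thus lay under their controls. Myo9a differed by 1.28 and Blvrb, a biliverdin reductase, by 0.61. Of 16 alternatives Slfn5 passed in 15, Trim25 in 9, Nlrc5, Apobec1 and Myo9a in 8 each and Blvrb in 4. Over them Myo9a ran from 0.39 to 1.62 and Blvrb from 0.22 to 0.85.

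Nuggc (-3.98), H1fx (-6.43), Ada (-2.49), Anxa2 (-2.44) and Rgcc (-1.41), genes of germinal centre or activated B cells among others, had a lower genotype change in interferon-response than in other B cells over both sorts together. In YFP+ cells they were lower in cKO in both classes, with changes of -2.94, -2.63, -2.34, -3.10 and -2.10 in other B cells, and the interferon-response class of the cKO libraries held 0, 0, 4, 1 and 5 UMIs of them. In total splenocytes other B cells had changes above 0 for all 5, from 0.36 for Anxa2 to 1.46 for Nuggc, which did not pass the test, and the interferon-response class held 0 UMIs of Nuggc in controls and 1 in cKO. With the 4 total libraries alone the difference for Nuggc was 1.59, of the opposite sign.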

How the results depend on the processing

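The share of interferon-response cells was higher in cKO under every alternative run for both sorts, but its size moved. With other choices of cells the ratio of cKO to control lay between 1.15 (at least 2 rule genes) and 1.70 (without other lineage markers) in total splenocytes and between 1.30 (at least 2 rule genes) and 2.57 (1500 UMIs per cell) in YFP+ cells, where at least 4 rule genes gave 2.26. The difference was lowest at 1500 UMIs, at 0.0771 and 0.126 points. Leaving out 1 library gave differences of 0.399 to 0.625 points in total splenocytes and 0.222 to 0.362 in YFP+ cells. With the batches paired the difference in share gave p = 0.5 in each sort by the exact permutation test, the smallest that 2 pairs allow. Counts of called genes moved far more, and the cause was not tested unless fewer or other cells or libraries make it plain. In total splenocytes, against 3, there were 127 with the replicate block of batch, 14 with DESeq2, 108 without a filter on low counts, 5 with all 8 libraries in 1 model, 18 and 13 with at least 2 and 4 rule genes, 12 with cells chosen at 3000 UMIs, 8 without cells with 5 or more UMIs of other lineages and 9 in Ighd-positive cells. Leaving out a library gave 43 (cKO replicate 1), 47 (cKO replicate 2), 97 (control replicate 1) and 112 (control replicate 2), the lone library being assumed to vary like the others. In YFP+ cells, against 92, there were 200 with the block, which paired the batches, 234 without a filter, 47 with all 8 libraries, 236 and 43 with at least 2 and 4 rule genes, 5 with cells chosen at 3000 UMIs and 6 without other lineage markers, and 71 (without cKO replicate 2) to 294 (without control replicate 1), with 218 without control replicate 2. All 3 and 90 of the 92 genes called were also called with the block. Of the 92, DESeq2 called 75 and the model of all 8 libraries 47. The rule of at least 4 genes called 32 of the 58 it tested. For the interaction, against 31, there were 1 at matched depth, 3 with DESeq2, 57 with at least 4 rule genes, 12 without other lineage markers, 14 (without cKO YFP+ replicate 1) to 58 (without cKO total replicate 1), and 16 without control YFP+ replicate 1.

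Some single genes changed sign. With at least 2 rule genes Slpi was at 0.12 in YFP+ cells. With at least 4, Eif3e was at -0.0175 in total cells, and Hba-a2 at -3.20 and Car2 at -0.65 for the interaction. Without cells with 5 or more UMIs of other lineages the interaction was -0.61 for Car2 and 1.64 for Cacnb2. With under 2 marker genes of other lineages in a cell it was -0.69 for Frmd4b, 0.15 for S100a8, 1.09 for Cacnb2 and 1.85 for Gm35520. In YFP+ libraries alone it was -1.01 for Car2 and 1.12 for Cacnb2, and in total libraries alone 1.59 for Nuggc. Eif3e in YFP+ cells was at 0.15 with cells chosen at 3000 UMIs. With 1 library left out, Eif3e lay between -0.18 and 0.35 in total and -0.39 and 0.38 in YFP+ cells, and S100a8 between -9.39 (without cKO total replicate 2) and 5.16 (without control total replicate 1). With 2 libraries a group, depth limits the genes tested to those with enough UMIs in 49 to 97 cells a library.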
